A study of Mus musculus with 9 samples.

Results

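Incretin receptors and cAMP signalling were followed through 10 genes chosen by name from knowledge of the beta cell: the receptor genes Glp1r, Gipr, Gcgr and Ffar1, the adenylyl cyclase genes Adcy5, Adcy6 and Adcy8, the cAMP effector genes Rapgef4 and Prkaca, and the transcription factor gene Creb1. They were chosen with earlier results of these data known, and are 10 of 52408 genes with a summed value in these libraries. The samples are MIN6 cells, a mouse insulinoma line used as a beta cell model, with 3 libraries in each of 3 groups. Control cells were untransfected. Overexpression cells were made to overexpress Nr4a1, a nuclear receptor gene of the immediate early class. EGCG cells received epigallocatechin gallate, the main catechin of green tea, upon Nr4a1 overexpression. How much EGCG was given, for how long, and how Nr4a1 was overexpressed is not given in the sources used here, and all libraries carry the label batch 1. Transfection is part of every difference from control, and no library of EGCG without overexpression was analysed here.

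GLP-1 and GIP, the incretins, are gut hormones released after a meal, and their receptors on the beta cell couple through the stimulatory G protein to adenylyl cyclases. The cAMP that these enzymes make acts through protein kinase A and through the exchange factor Epac2, the product of Rapgef4, and raises insulin release only when glucose is also high. Protein kinase A phosphorylates CREB, the product of Creb1, which maintains beta cell genes. The fatty acid receptor FFAR1 reaches the same secretory granules mainly through Gq and phospholipase C.

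With Nr4a1 overexpression the receptors moved apart. Glp1r rose to 2.71 times its control level and Ffar1 to 2.04 times, while Gipr fell to 0.363 of its control level. The Glp1r value sums Glp1r-201, with means of 2.63 and 4.70 TPM, and Glp1r-202, annotated as a target of nonsense-mediated decay. The effector genes Rapgef4 and Prkaca rose by smaller amounts, to 1.43 and 1.31 times control, and Creb1 fell to 0.794 of control. The Creb1 value is a sum too, and part of its fall lay in transcripts with a retained intron or annotated for decay. In the EGCG libraries each of these 6 genes lay on the control side of the overexpression libraries, and none of the 7 tested genes was called against control. Values are TPM, a unit scaled to gene length and to the sum of the library, and a gene is called when its adjusted p in limma on log2(TPM + 1) is under 0.05. Multiples of control are ratios of mean TPM. Differences on the log2 scale are of log2(TPM + 1), which shrinks changes at low TPM.

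**Figure D1:**
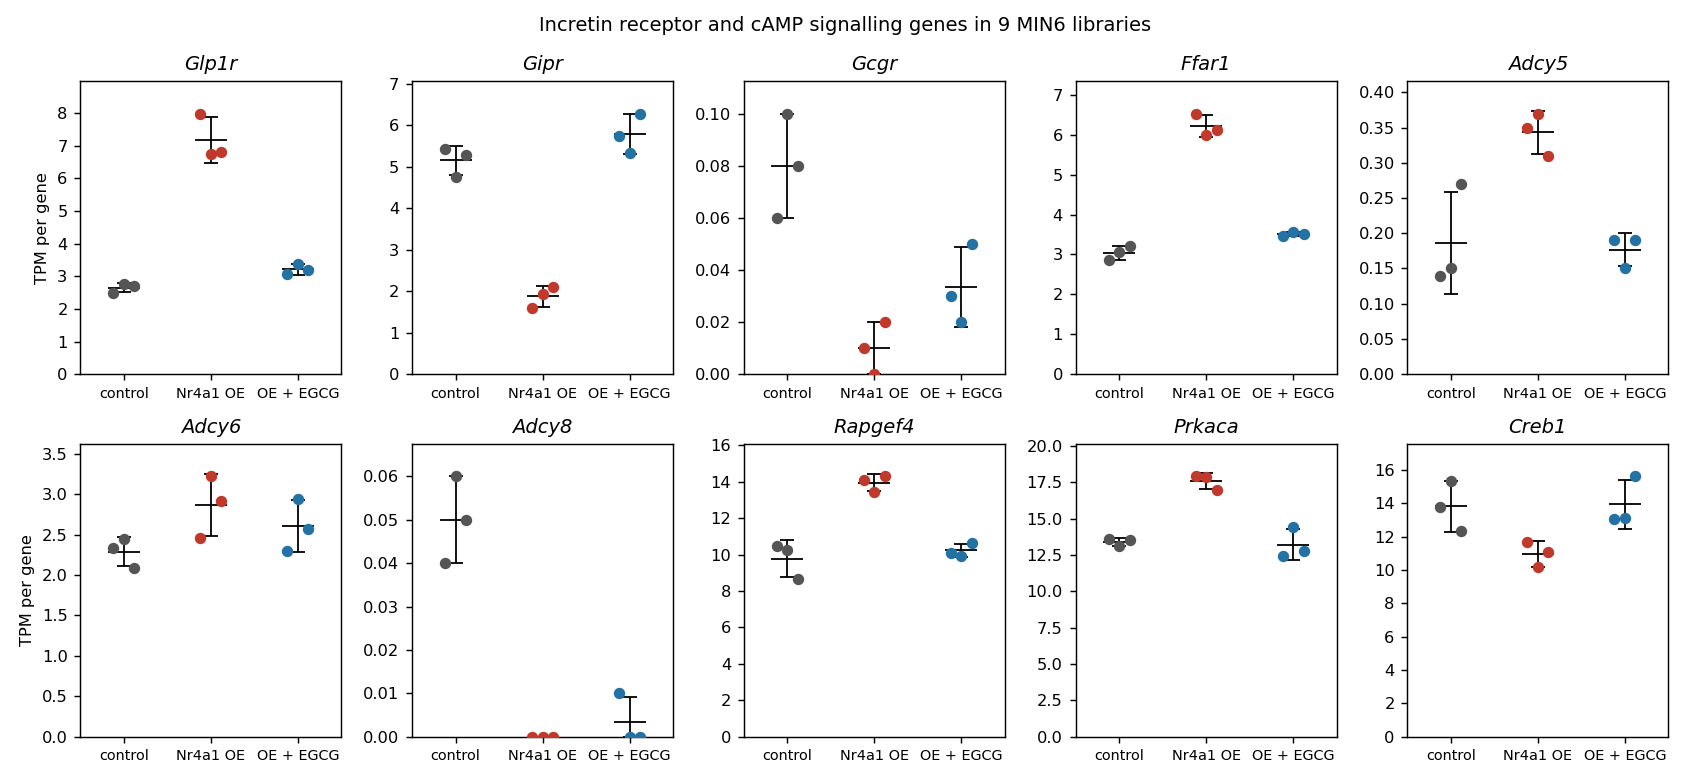
Level in TPM of each of the 10 genes (1 panel each, linear axes from 0 that differ between panels), with 3 libraries per group as points and bars at the group means with SD. Glp1r and Ffar1 stand high and Gipr low in the overexpression panels, and Gcgr and Adcy8 stay at or under 0.10 TPM in all libraries.

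Of the 10 genes, 7 were tested, and each of them reached 1 TPM in 9 of 9 libraries, so none passed the filter through a single group. Gcgr, Adcy5 and Adcy8 stayed under 1 TPM. In overexpression against control 4 of the 7 tested genes were higher, 2 were lower and 1 was not called, where 59.5% of all 11950 tested genes were called, 38.2% higher and 21.3% lower. Their median difference was 0.37 on the log2 scale, against 0.10 over all tested genes. A call is thus common in this comparison. Glp1r and Gipr, 2 of the 7, were called with a difference of at least 1 on the log2 scale, as were 4.72% of all tested genes. For Glp1r this holds for the gene sum, and its transcript Glp1r-201 alone rose by 0.65. The genes were chosen with earlier results of these data known, so these shares describe them and test nothing. In EGCG against overexpression 2 of the 7 were higher, 4 were lower and 1 was not called, beside 53.0% called among all tested genes, 18.8% higher and 34.1% lower. The median of the 7 was -0.39, against -0.09 over all tested genes. These comparisons share the overexpression libraries, so opposite signs between them are not independent. In this comparison 1 of the 7, Gipr, was called at 1 or more on the log2 scale, as were 3.05% of all tested genes. Glp1r, at -0.96, fell short of that size, though its mean TPM was 0.447 of that with overexpression. In EGCG against control limma called 0 of the 7, beside 18.2% of all tested genes, and 2 of the 7, Glp1r and Ffar1, had an unadjusted p under 0.05. No other tool was run. The libraries of the compared groups did not overlap for 7 of the 7 genes in overexpression against control (65.0% of all tested genes, 41.4% higher and 23.7% lower), for 6 in EGCG against overexpression (64.6% of all, 23.2% higher and 41.4% lower) and for 2, both higher, in EGCG against control (34.8% of all, 21.0% higher).

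**Figure D2:**
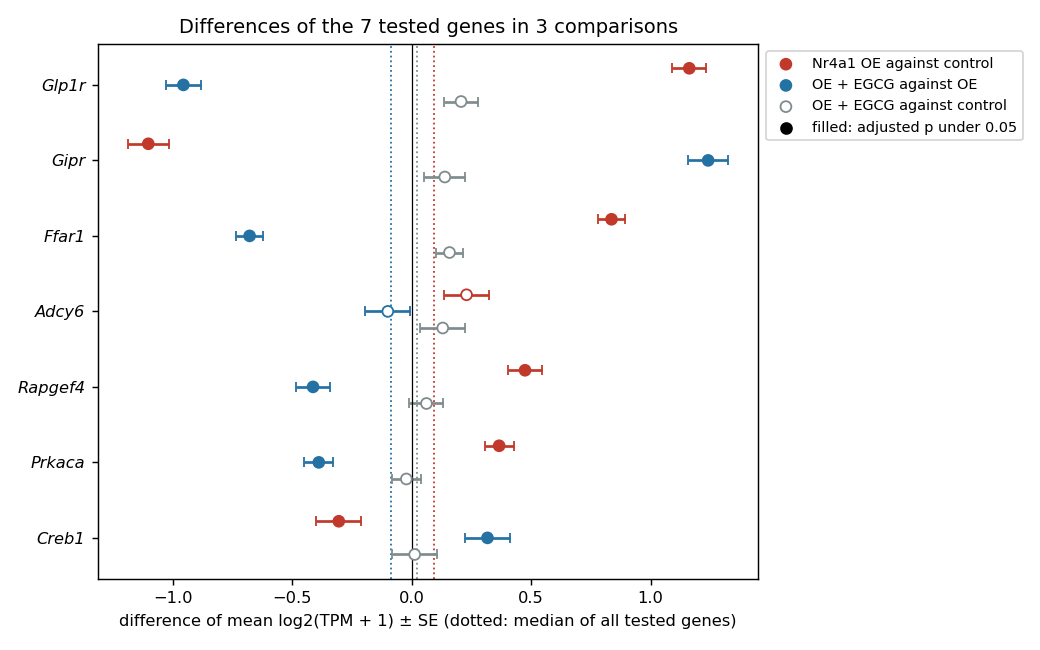
Difference of mean log2(TPM + 1) with limma's SE for the 7 tested genes in the 3 comparisons, with a dotted line per comparison at the median of all tested genes and filled points for called genes. Glp1r and Gipr lie farthest from 0 in the first 2 comparisons, at 1.16 and -1.10 for overexpression against control, and all 7 genes lie between -0.02 and 0.21 for EGCG against control.

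Nr4a1 itself, which checks the labels, was at 0.63, 0.78 and 0.76 TPM in the control libraries, at 128.3, 122.5 and 165.2 TPM with overexpression and at 46.3, 60.9 and 54.5 TPM with EGCG. It was lower with EGCG than without by 1.34 on the log2 scale (adjusted p = 3.71e-05), so EGCG and a lower Nr4a1 level cannot be told apart in these libraries. The beta cell markers Ins1, Iapp, Pdx1, Mafa and G6pc2 were present. Of the 9 beta cell markers 8 were tested, and 6 were higher and 1 lower with overexpression (38.2% and 21.3% of all tested genes). In EGCG against control 3 were higher and 3 lower (11.1% and 7.10% of all). The summed level of the 9 ran from 3721 to 3878 TPM in control, 5765 to 6050 TPM in overexpression and 3991 to 4328 TPM in EGCG libraries. The 6 alpha cell markers summed to between 328 and 345 TPM, 778 and 864 TPM, and 305 and 340 TPM in the same order. That sum was mostly Gcg, and Ttr, which had means of 9.84, 51.9 and 12.7 TPM, rose with overexpression by 2.29. Irx2 fell from 3.50 to 2.44 TPM, and Irx1 had a mean under 0.16 TPM in every group. The 3 delta cell markers summed to between 13.4 and 15.7 TPM, 7.01 and 7.91 TPM, and 13.1 and 14.8 TPM. Nearly all of that was Rbp4, which fell with overexpression by 0.88 and rose with EGCG against overexpression by 0.83, while Sst was at 0 in the EGCG libraries. The fibroblast, endothelial, duct and leukocyte lists summed to at most 1.39 TPM in any library. The part of these marker lists in the results was not tested. In bulk RNA, fewer cells with a transcript and less of it per cell cannot be told apart. The labels do not say that replicates were separate cultures, so the p-values speak only of the spread among these libraries, which may be technical. TPM keeps no depth, so the number of reads behind a value is unknown.

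Promoter windows of the genes that rose together with overexpression are given where each gene is described, from RefSeq on GRCm38.p6, an older build than that of the deposited values. Each has 300 bases, 250 before the start site and 50 from it on. A window was found for 7 of the 10 genes, while Gipr, Adcy6 and Adcy8 had none. Each window was searched on both strands for the cAMP response element TGACGTCA, its shortened core TGACG, which lies within it, the NR4A monomer site AAAGGTCA and the hypoxia response core ACGTG. Of 32851 promoter windows, 1.79%, 20.8%, 1.51% and 19.6% hold these motifs in that order. Among the 7 genes only the upstream window of Prkaca held any of them, which says nothing on the binding of a factor.

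Glp1r encodes the receptor of GLP-1. The windows of Glp1r (chr17:30901617-30901916, plus strand) and Ffar1 (chr7:30861421-30861720, minus strand) are shown because these receptors rose most, and neither has a motif to set in capitals.
Glp1r: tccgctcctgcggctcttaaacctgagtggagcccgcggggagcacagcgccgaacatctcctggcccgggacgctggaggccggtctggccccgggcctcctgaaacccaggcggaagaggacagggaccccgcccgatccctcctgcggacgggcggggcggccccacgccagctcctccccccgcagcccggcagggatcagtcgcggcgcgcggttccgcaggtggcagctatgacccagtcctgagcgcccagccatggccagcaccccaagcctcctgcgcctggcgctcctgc
Ffar1: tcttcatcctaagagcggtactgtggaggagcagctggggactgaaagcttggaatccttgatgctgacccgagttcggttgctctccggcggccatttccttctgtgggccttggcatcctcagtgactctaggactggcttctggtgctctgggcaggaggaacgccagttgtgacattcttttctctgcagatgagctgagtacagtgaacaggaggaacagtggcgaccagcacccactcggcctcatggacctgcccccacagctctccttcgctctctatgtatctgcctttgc
Their GC contents were 73.7% and 56.3%, against a median of 52.7% over all windows. The ratio of observed to expected CpG was 0.72 in the Glp1r window and 0.378 in the Ffar1 window, with a median of 0.384 over all windows.

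Glp1r was at 2.5, 2.76 and 2.69 TPM in the control libraries, at 7.99, 6.75 and 6.81 TPM with overexpression and at 3.06, 3.39 and 3.19 TPM with EGCG. All 3 overexpression libraries stood above all others, and the EGCG libraries lay just above the control libraries with no overlap. The group means were 2.65 ± 0.135, 7.18 ± 0.699 and 3.21 ± 0.166 TPM (SD, n = 3 each). The gene rose with overexpression by 1.16 ± 0.07 on the log2 scale (SE, adjusted p = 2.98e-06) and fell with EGCG against overexpression by 0.96 (adjusted p = 1.22e-05). EGCG against control gave 0.21 with a 95% interval of 0.05 to 0.37, and was not called (adjusted p = 0.075). It was called at 0.32 (adjusted p = 0.017) when TPM was rescaled to nuclear protein-coding genes alone.

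Gipr encodes the receptor of GIP, the other incretin. Its control libraries held 5.42, 4.76 and 5.29 TPM, the overexpression libraries 1.59, 1.93 and 2.10 TPM, and the EGCG libraries 5.74, 5.33 and 6.28 TPM. The 3 overexpression libraries stood below all others, and control and EGCG libraries overlapped. Means were 5.16 ± 0.350, 1.87 ± 0.260 and 5.78 ± 0.476 TPM (SD, n = 3 each). Gipr fell with overexpression by 1.10 ± 0.09 on the log2 scale (adjusted p = 9.08e-06) and rose with EGCG against overexpression by 1.24 (adjusted p = 7.51e-06). On TPM + 1 that rise is 2.36 times, while the ratio of mean TPM was 3.09. EGCG against control gave 0.14 with a 95% interval of -0.05 to 0.33 (adjusted p = 0.274).

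The balance between the incretin receptors changed order. The ratio of Glp1r to Gipr TPM was 0.461, 0.580 and 0.509 in the control libraries, 5.03, 3.50 and 3.24 with overexpression, and 0.533, 0.636 and 0.508 with EGCG. By these gene sums Gipr was the more abundant of the pair per length in all 6 control and EGCG libraries, and Glp1r in all 3 overexpression libraries. The sums include transcripts annotated with a retained intron or as targets of nonsense-mediated decay. The coding transcripts Glp1r-201 and Gipr-201 had means of 2.63 and 3.52 TPM in control, 4.70 and 1.36 TPM in overexpression and 2.71 and 3.20 TPM in EGCG libraries. In EGCG replicate 2 their order was reversed, at 2.73 and 2.61 TPM. The ratio of the gene sums was calculated after both genes' values were known and has no test.

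Ffar1, the gene of the long-chain fatty acid receptor, was at 2.85, 3.06 and 3.21 TPM in control, 6.53, 6.0 and 6.11 TPM in overexpression and 3.46, 3.55 and 3.51 TPM in EGCG libraries. As for Glp1r, the overexpression libraries stood alone at the top, and the EGCG libraries lay above the control libraries without overlap. The gene rose with overexpression by 0.84 ± 0.06 on the log2 scale (adjusted p = 4.48e-06) and fell with EGCG against overexpression by 0.68 (adjusted p = 2.02e-05). For EGCG against control the difference was 0.16 (95% interval 0.03 to 0.29, adjusted p = 0.0814), and it was called at 0.26 (adjusted p = 0.0241) under the rescaling to nuclear protein-coding genes. Ffar1 has 1 annotated transcript in the GENCODE M21 models.

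Gcgr, the glucagon receptor gene, was at 0.06, 0.10 and 0.08 TPM in control libraries, at 0.01, 0 and 0.02 TPM with overexpression and at 0.03, 0.02 and 0.05 TPM with EGCG. These levels are near 0 in all groups and the gene was left out by the filter on low values. Chemoreceptor genes, 1753 olfactory, vomeronasal and trace amine receptor genes taken as a measure of low background, averaged 0.035 to 0.0691 TPM per gene in control, 0.00273 to 0.00309 TPM in overexpression and 0.0053 to 0.00788 TPM in EGCG libraries. That background moved with Gcgr, and its part in the Gcgr values was not tested. With no filter on low values Gcgr was called at -0.10 in overexpression against control (adjusted p = 0.0103).

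Among the adenylyl cyclases Adcy6 was the only one of the 3 chosen genes above 1 TPM. It was at 2.33, 2.44 and 2.09 TPM in control, 2.46, 3.22 and 2.91 TPM in overexpression and 2.30, 2.94 and 2.57 TPM in EGCG libraries. The overexpression libraries lay above the control libraries by a narrow margin and overlapped the EGCG libraries. The difference from control was 0.23 on the log2 scale (95% interval 0.02 to 0.44, adjusted p = 0.0612) and was not called. It was called without overexpression replicate 1, at 0.31 (adjusted p = 0.0258), after subtraction of the chemoreceptor background, at 0.25 (adjusted p = 0.0427), and with the replicate block, at 0.23 (adjusted p = 0.0375). EGCG against overexpression gave -0.10 with a 95% interval of -0.31 to 0.11. The gene sum joins transcripts that moved in different directions with overexpression, none of which was tested. Of the long coding transcripts Adcy6-201 went from 0.613 to 0.95 TPM and Adcy6-205 from 0.977 to 0.64 TPM (means). Adcy6-202, annotated with a retained intron, went from 0.44 to 0.7 TPM. The short Adcy6-204 went from 0.04 to 0.357 TPM and the short Adcy6-203 from 0.217 to 0 TPM. Adcy6 shares 605 of its 6782 exon bases with the antisense gene Gm29331, and reads from the pair cannot be told apart where counting ignores strand, a setting that is not given in the sources used here.

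Adcy5, a cyclase linked to human fasting glucose and expressed in beta cells, was at 0.14, 0.15 and 0.27 TPM in control, 0.35, 0.37 and 0.31 TPM in overexpression and 0.19, 0.15 and 0.19 TPM in EGCG libraries. The overexpression libraries stood above the rest, all under 0.4 TPM. Adcy8, a calcium-stimulated cyclase, was at 0.04, 0.06 and 0.05 TPM in control, listed at 0 in all 3 overexpression libraries, and at 0.01, 0 and 0 TPM with EGCG. The control values of Adcy8 are within the range of the chemoreceptor background in those libraries. The summed level of Adcy5, Adcy6 and Adcy8 ran from 2.41 to 2.65 TPM, 2.81 to 3.59 TPM and 2.5 to 3.09 TPM in the 3 groups, nearly all of it Adcy6.

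Rapgef4 encodes Epac2, the cAMP sensor of the beta cell that acts without protein kinase A, and Prkaca encodes the alpha catalytic subunit of that kinase. Their windows (Rapgef4 chr2:71980965-71981264 and the upstream window of Prkaca chr8:83972728-83973027, both plus strand) are shown as those of the effectors that rose. Capitals mark CGTCA, the reverse complement of the shortened core, and CACGTG, which holds the hypoxia core on both strands.
Rapgef4: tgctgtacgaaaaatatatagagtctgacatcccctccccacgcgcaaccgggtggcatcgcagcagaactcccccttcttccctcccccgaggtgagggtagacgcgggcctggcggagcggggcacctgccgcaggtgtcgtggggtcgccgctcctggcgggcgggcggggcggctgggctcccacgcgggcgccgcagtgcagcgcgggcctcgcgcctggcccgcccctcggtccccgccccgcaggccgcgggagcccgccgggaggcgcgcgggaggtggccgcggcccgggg
Prkaca: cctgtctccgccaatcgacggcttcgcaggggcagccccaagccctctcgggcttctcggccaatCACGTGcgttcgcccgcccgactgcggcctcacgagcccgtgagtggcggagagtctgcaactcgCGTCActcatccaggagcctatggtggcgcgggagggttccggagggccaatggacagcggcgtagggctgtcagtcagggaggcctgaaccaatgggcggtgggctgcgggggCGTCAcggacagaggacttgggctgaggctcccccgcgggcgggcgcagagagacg
The Prkaca matches to the shortened core lie at -120 and -6 from the start site, and those to the hypoxia core at -184 and -185. The GC contents were 76.7% for Rapgef4 and 69.7% for Prkaca.

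Rapgef4 was at 10.47, 10.22 and 8.64 TPM in control, 14.11, 13.41 and 14.29 TPM in overexpression and 10.10, 9.92 and 10.65 TPM in EGCG libraries. The overexpression libraries were the highest 3, and control and EGCG libraries were intermixed. The rise with overexpression was 0.47 ± 0.07 on the log2 scale (adjusted p = 0.000418) and the fall with EGCG against overexpression was -0.41 (adjusted p = 0.00119). EGCG against control gave 0.06, with a 95% interval of -0.10 to 0.22. The gene shares 337 of 6677 exon bases with the antisense gene Rapgef4os2.

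Prkaca was at 13.57, 13.11 and 13.56 TPM in control, 17.91, 17.88 and 16.96 TPM in overexpression and 12.46, 14.43 and 12.77 TPM in EGCG libraries. Again the overexpression libraries stood above all others, and the EGCG libraries spread around the control level. Prkaca rose with overexpression by 0.37 ± 0.06 (adjusted p = 0.000711) and fell with EGCG against overexpression by 0.39 (adjusted p = 0.000662). The difference of EGCG from control was -0.02, with a 95% interval of -0.16 to 0.11.

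Creb1 was at 13.76, 15.34 and 12.31 TPM in control, 11.66, 10.16 and 11.06 TPM in overexpression and 13.07, 13.11 and 15.61 TPM in EGCG libraries. The overexpression libraries were the lowest 3, with a gap of under 1 TPM to the nearest control library. The sum includes transcripts annotated with a retained intron or as targets of nonsense-mediated decay. Together these had means of 3.09, 1.58 and 2.32 TPM in control, overexpression and EGCG libraries. Of the remaining transcripts, those with an exon described below went from 2.16 to 3.37 TPM with overexpression. Those without it went from 8.55 to 6.01 TPM. Creb1 fell with overexpression by 0.30 ± 0.09 (adjusted p = 0.0198) and rose with EGCG against overexpression by 0.32 (adjusted p = 0.0187). The fall was not called without control replicate 2 (-0.23, adjusted p = 0.0706) or without overexpression replicate 2 (-0.26, adjusted p = 0.0723). The rise was not called without overexpression replicate 2 (0.27, adjusted p = 0.068), without EGCG replicate 3 (0.24, adjusted p = 0.0642) or with no filter on low values (0.32, adjusted p = 0.0593). EGCG against control gave 0.01 (95% interval -0.20 to 0.23).

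The order of the 10 genes by TPM was the same in control and EGCG libraries: Creb1 and Prkaca, whose ranges overlapped, then Rapgef4, Gipr, Ffar1, Glp1r, Adcy6, Adcy5, Gcgr and Adcy8. With overexpression Prkaca was followed by Rapgef4, Creb1, Glp1r, Ffar1, Adcy6, Gipr and Adcy5, each with a range separate from the next. Gipr thus went from the place after Rapgef4 to the place after Adcy6. Gcgr and Adcy8 overlapped in control and overexpression libraries.

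The deposited table is per transcript, so the genes could be divided further. Of 47 annotated transcripts of the 10 genes, 14 were tested, and 6 were higher and 4 lower with overexpression, where 46.2% of 23656 tested transcripts were called. In EGCG against overexpression 3 were higher and 5 lower (32.9% of all), and in EGCG against control 1 was higher and 1 lower (11.1% of all). These last 2 were Gipr-203 at 0.52 (adjusted p = 0.0484) and Creb1-210 at -0.57 (adjusted p = 0.0227), and 0 transcripts were called there with the replicate block or without control replicate 1, control replicate 2, EGCG replicate 1 or EGCG replicate 2. Values of transcripts that share exons are estimates that divide reads, and are less certain than the gene sums.

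For Glp1r a transcript that was close to absent in control took a large share with overexpression. Glp1r-202 was at 0, 0 and 0.07 TPM in control, 3.25, 1.98 and 2.22 TPM in overexpression and 0.48, 0.66 and 0.38 TPM in EGCG libraries, which is 0.9%, 34.2% and 15.7% of the gene. It carries the same coding exons as Glp1r-201 and 1 more exon, set off by a splice after the stop codon. It is annotated as a target of nonsense-mediated decay. Its 2376 bases all lie within the 5811 of Glp1r-201, so apart from that splice it has no bases of its own. It rose by 1.75 on the log2 scale (adjusted p = 8.67e-05) and fell with EGCG against overexpression by 1.2 (adjusted p = 0.000787). With values this near 0 the size depends on the pseudocount: at 0.1 these differences were 4.41 and -2.08 (adjusted p = 0.000159 and 0.00787), and EGCG against control was called at 2.32 (adjusted p = 0.0198; 0.0549 at a pseudocount of 1). The coding transcript Glp1r-201 also rose, from 2.5, 2.76 and 2.62 TPM to 4.74, 4.77 and 4.59 TPM, by 0.65 (adjusted p = 9.47e-05), and was at 2.58, 2.73 and 2.81 TPM with EGCG.

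The coding transcript Gipr-201 held 68.5% of the gene in control libraries and fell with overexpression by 0.94 (adjusted p = 0.000831). Gipr-203, annotated with a retained intron, had means of 0.96, 0.403 and 1.79 TPM in the 3 groups. Its fall with overexpression (-0.47, adjusted p = 0.0236) was not called with the replicate block (adjusted p = 0.0518), without control replicate 3 (0.0535), without overexpression replicate 1 (0.0676) or without overexpression replicate 3 (0.0714). It rose with EGCG against overexpression by 1.00 (adjusted p = 0.00116). Rapgef4-202, which carries 73.2% of Rapgef4 in control libraries and codes for 1011 residues, rose by 0.52 (adjusted p = 0.00022) and fell with EGCG against overexpression by 0.53 (adjusted p = 0.000309). Prkaca-201 rose by 0.40 (adjusted p = 0.00294), and Prkaca-202 was not called.

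For Creb1 the 2 coding transcripts with long 3' ends moved in opposite directions. Creb1-202, with 327 codons, was at 7.29, 7.32 and 6.14 TPM in control and 3.98, 3.78 and 3.90 TPM in overexpression libraries and fell by 0.69 (adjusted p = 0.000675). Creb1-201, with 341 codons, was at 0.04, 0.03 and 1.15 TPM in control and 2.21, 2.24 and 2.18 TPM in overexpression libraries and rose by 1.28 (adjusted p = 0.00832), or by 3.03 at a pseudocount of 0.1 (adjusted p = 0.0168). With EGCG Creb1-202 was at 5.94, 5.68 and 7.18 TPM and Creb1-201 at 1.78, 2.26 and 1.04 TPM. The transcripts differ by an exon of 42 bases, 14 codons, at chr1:64559727-64559768 (GRCm38, plus strand). It is set in capitals here with 15 bases of the neighbouring exons, from GENCODE M21 transcripts.
With the exon: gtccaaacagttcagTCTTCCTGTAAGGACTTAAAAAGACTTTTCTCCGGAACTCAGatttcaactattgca
Without the exon: gtccaaacagttcagatttcaactattgca
Over all Creb1 transcripts that hold or skip this exon, its share of TPM was 13.2%, 21.6% and 26.1% in control, 39.4%, 35.7% and 32.7% in overexpression and 27.0%, 27.7% and 21.2% in EGCG libraries. All 3 overexpression libraries had the largest shares. The exon was chosen after the transcript values were seen, so its share is given with no test, and 2 transcripts hold it and 5 skip it. Creb1-201 and Creb1-202 also differ in the length of their 3' ends, so the division between them need not come from reads on the exon.

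**Figure D3:**
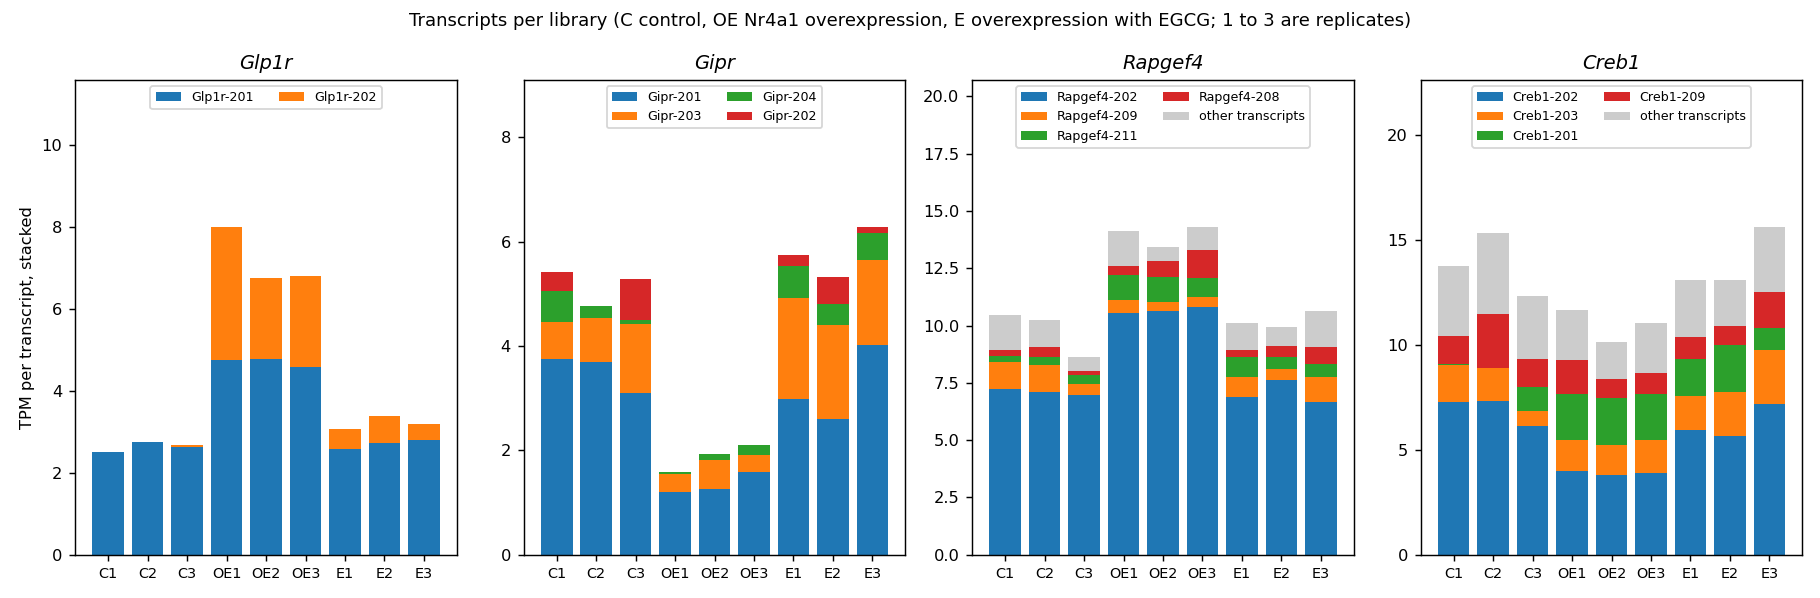
Stacked TPM per transcript in each of the 9 libraries (linear axis from 0; C control, OE overexpression, E EGCG). Glp1r-202 appears in the overexpression bars with 1.98 to 3.25 TPM, and Creb1-201 is near 0 in control libraries 1 and 2.

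Other genes of the pathway were followed through 13 lists by role, with 229 genes of which 118 were tested. Across them 41 were higher, 31 lower and 46 not called in overexpression against control, beside 38.2% higher and 21.3% lower among all tested genes, with a median of 0.04 against 0.10. The tested genes include Sstr2, Oprk1, Creb3l2 and Sik1, which passed the filter only through the overexpression libraries, and Egr1, only through the control libraries. For these genes the filter favoured the direction of the difference, and no counts without them were made. In EGCG against overexpression 30 were higher and 42 lower, beside 18.8% and 34.1% (median -0.07 against -0.09). Over the lists together, the share called with overexpression is near that of all genes. In EGCG against control 6 were higher, 16 were lower and 96 were not called, beside 11.1% higher and 7.10% lower over all tested genes. The balance of the lists depended on scaling. With median-ratio scaling 30 were higher and 43 lower with overexpression, and 35 higher and 25 lower with EGCG against overexpression. In EGCG against control 7 were higher and 21 lower by median ratios, 8 and 19 by quantiles, and 16 and 14 on nuclear protein-coding genes alone. The shares of all tested genes given here are the background for each list below.

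Upstream of the receptors, 2 of the 6 tested ligand and processing genes of 9 were higher with overexpression and 1 was lower, against 2 and 3 with median-ratio scaling. Gcg, which encodes glucagon and GLP-1, rose from 322.8 ± 9.04 to 759.3 ± 42.7 TPM and was at 304.4 ± 17.3 TPM with EGCG. Pcsk1, the prohormone convertase that releases GLP-1 from proglucagon, went from 61.0 to 88.7 TPM (adjusted p = 7.48e-05) and was at 58.3 TPM with EGCG. Pcsk1n, which encodes an inhibitor of PC1/3, fell from 5.82 to 3.50 TPM (adjusted p = 0.00404).

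Of 22 other receptors that raise cAMP 3 were tested, and 2 rose. Vipr1, a receptor of vasoactive intestinal peptide, was at 1.30, 3.42 and 1.13 TPM in control, overexpression and EGCG libraries (means, adjusted p = 2.25e-05 for the rise and 1.85e-05 for the fall). Crhr1, the receptor of corticotropin-releasing hormone, rose by 0.42 (adjusted p = 0.00536). Of 37 receptors that lower cAMP 3 were tested, and Sstr2 and Oprk1 passed the filter only through the overexpression libraries. Adra2a, the alpha-2A adrenergic receptor, was at 2.8, 4.15 and 2.03 TPM in the 3 groups and rose with overexpression by 0.44 (adjusted p = 0.00121).

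Among 8 tested genes of Gq-coupled receptors and phospholipase C, 2 rose and 4 fell with overexpression, against 1 and 4 under each other scaling. Ffar4, a fatty acid receptor like Ffar1, fell from 9.42 ± 0.736 to 2.73 ± 0.160 TPM and was at 9.10 ± 0.439 TPM with EGCG (adjusted p = 6.76e-07 and 9.66e-07), so the fatty acid receptors moved in opposite directions. P2ry1, a purinergic receptor, rose from 49.1 to 70.6 TPM (adjusted p = 0.00117), and Chrm3, the muscarinic M3 receptor, fell from 4.77 to 3.10 TPM (adjusted p = 0.000505).

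Of 15 tested G protein subunits 7 rose and 3 fell, but 5 rose and 5 fell with median-ratio scaling, and 4 rose and 6 fell with quantile normalization. Among those that rose were Gnb4, from 1.01 to 2.61 TPM (adjusted p = 0.000223), and Gnai1, an inhibitory alpha subunit, from 9.51 to 12.7 TPM (adjusted p = 0.000931). Of 15 tested receptor regulators 6 rose and 4 fell, against 3 and 6 under either of these scalings. Rgs4, which speeds the turn-off of Gi and Gq, was at 74.3 ± 1.56 TPM in control, 37.9 ± 2.13 TPM in overexpression and 86.6 ± 5.19 TPM in EGCG libraries (adjusted p = 3.48e-06 and 1.55e-06), and Rgs2 fell by 1.01 (adjusted p = 7.53e-05). Gpsm1, a G protein regulator, rose by 0.52 (adjusted p = 0.000102).

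Of the 7 other adenylyl cyclase genes 2 were tested. Adcy9 was at 3.92, 4.69 and 3.77 TPM in the 3 groups, above Adcy6 in each, and rose with overexpression by 0.21 (adjusted p = 0.0177), a call that was lost under each other scaling, with adjusted p of 0.18 by median ratios, 0.107 by quantiles and 0.1 when only nuclear protein-coding genes were kept. Adcy7 was not called with overexpression (adjusted p = 0.0709) and was higher with EGCG than with overexpression by 0.31 (adjusted p = 0.00613). Among 11 tested phosphodiesterases, which break down cyclic nucleotides, 2 rose and 3 fell, against 1 and 5 with median-ratio scaling and 2 and 5 with quantile normalization. Pde1b went from 2.02 to 0.893 TPM and to 2.35 TPM with EGCG (adjusted p = 0.000167 and 6.78e-05).

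The 7 tested other subunits and inhibitors of protein kinase A had 2 that rose and 3 that fell. Prkacb, the beta catalytic subunit, went from 8.67 ± 0.719 to 15.6 ± 0.312 TPM (0.79, adjusted p = 1.05e-05) and was at 8.47 ± 0.350 TPM with EGCG. Prkar1a, a regulatory subunit, went from 77.1 to 110.3 TPM and to 76.2 TPM (adjusted p = 7.63e-05 and 8.74e-05). Prkar1b went the other way, from 27.5 to 14.1 TPM and to 22.7 TPM (adjusted p = 6.93e-06 and 6.78e-05). Of 8 tested A-kinase anchoring proteins, which hold the kinase at its sites, 4 rose and 2 fell, and Akap7 fell from 14.4 to 4.63 TPM and was at 10.5 TPM with EGCG (adjusted p = 6.94e-06 and 6.41e-05). Of 11 tested partners of Epac and Rap 1 rose and 2 fell, and the one that rose was Rapgef2, from 2.65 to 3.42 TPM (adjusted p = 0.0101).

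Among 13 tested other CREB family members and coactivators 6 rose and 2 fell, against 4 and 3 with median-ratio scaling. Creb3l2 and Sik1 passed the filter only through the overexpression libraries. Creb3, a membrane-bound relative of Creb1, went from 8.96 to 17.5 TPM (adjusted p = 0.000313), and Sik3, a kinase that holds back CREB coactivators, from 4.93 to 7.91 TPM (adjusted p = 0.000117). Of 16 tested CREB target genes 3 rose and 7 fell with overexpression, and 4 were higher and 4 lower with EGCG than with overexpression, beside 18.8% and 34.1% of all tested genes. With median-ratio scaling the latter split was 7 higher and 2 lower. In EGCG against control 0 of the 16 were higher and 5 lower, beside 11.1% and 7.10% of all tested genes. There the split was 1 higher and 6 lower by median ratios and by quantiles, and 1 and 5 on nuclear protein-coding genes alone. Dusp1, a phosphatase of MAP kinases, fell from 12.2 to 4.38 TPM (adjusted p = 2.69e-06), Cited2 fell from 19.5 to 8.75 TPM (adjusted p = 1.03e-06), and Gem, a small GTPase, rose from 1.32 to 2.97 TPM (adjusted p = 3.24e-05). Egr1 passed the filter only through the control libraries.

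**Figure D4:**
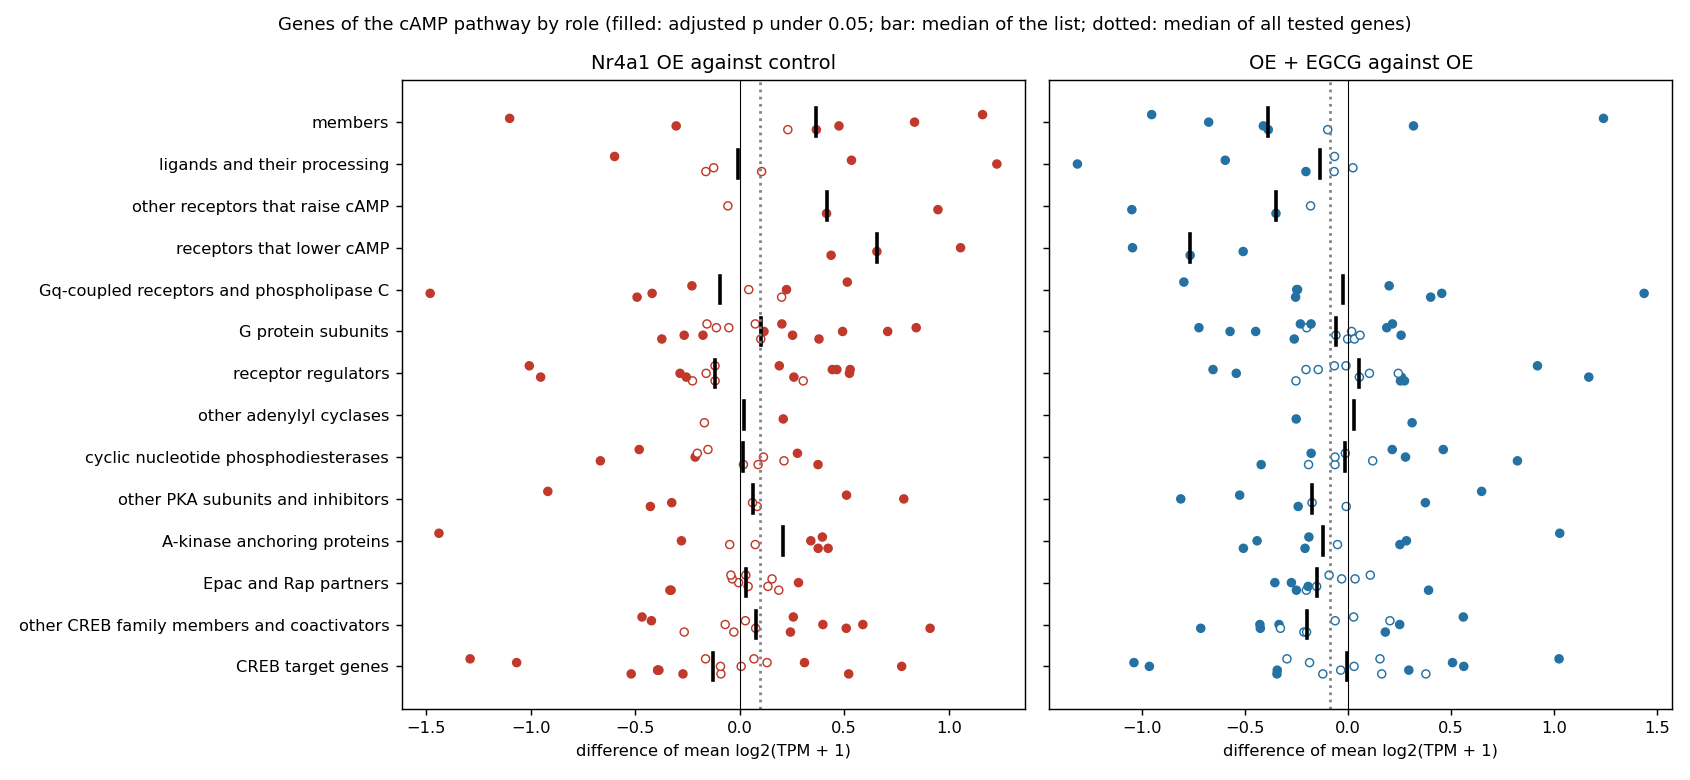
Difference of mean log2(TPM + 1) of each tested gene of the pathway by role, with overexpression against control on the left and EGCG against overexpression on the right; filled points are called, bars are list medians and the dotted line is the median of all tested genes. Most lists have genes on both sides of 0, and 2 of the 3 points of the receptors that lower cAMP, Sstr2 and Oprk1, passed the filter only through the overexpression libraries.

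The genes most like Glp1r and Gipr were looked up by Pearson's r of log2(TPM + 1) over the 9 libraries among 6610 protein-coding genes. H3f3b (0.9978), Creld2 (0.9973), Usp33 (0.9963), Pwp1 (0.9958) and Hspa5 (0.9958) were the closest to Glp1r. For Gipr they were Ccng2 (0.9917), Acot13 (0.9906), Selenbp1 (0.9877), Kdm4b (0.9872) and Hilpda (0.9862). These are descriptions of 9 libraries in 3 groups that all points share.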

How the data were processed

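RNA from 9 libraries was extracted with an RNeasy kit and made into stranded total RNA libraries, per the labels' protocols. The deposited values are TPM per Ensembl transcript, made by the authors with STAR 2.7.1a and RSEM 1.2.31 against GRCm39, after bcl2fastq 2.20, cutadapt 2.8 and FastQC 0.11.9, per the submitters' processing notes. Which annotation release, strand setting and filters they chose is not given in the sources used here. A rise of abundant RNAs lowers all other TPM.

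Identifiers were joined to genes with GENCODE M21, an annotation of GRCm38. Of 142435 identifiers 138346 (97.13%) matched, and those that did not held 18.0% to 20.6% of a library's TPM. TPM was summed per gene over the matched transcripts. Nuclear protein-coding genes held 21.23% to 21.75% of the TPM in control, 22.6% to 23.08% in overexpression and 20.25% to 20.73% in EGCG libraries. Rescaling to these genes alone therefore raises EGCG values relative to the other groups. A gene was tested if 3 or more libraries reached 1 TPM. The model was limma (version 3.58.1, R 4.3.3) with lmFit, contrasts and a trended eBayes on log2(TPM + 1). All 9 libraries entered together, tests were two-sided, and p-values were adjusted by Benjamini-Hochberg over all tested genes, with a threshold of 0.05. The fit was run on simulated data with 200 changed genes and independent noise. In overexpression against control 7106 genes were called, so the simulation does not cover change this widespread or its effect on scaling. TPM are not counts, so no count model was used.

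The 10 genes and all lists were chosen with earlier results of these data known. Beside them, up to 4 called genes of each list with the smallest adjusted p in each of the first 2 comparisons could be named, and the 5 genes most correlated with Glp1r and with Gipr. The main fit did not pair libraries by replicate number, and whether the numbers mark pairs was not settled. Of 9 same-number pairs 3 correlated above 0.1, and 11 of 18 library and group pairs correlated best with the same number. Alternatives were other pseudocounts (0.1 and 5), filters, scalings, the replicate block and leaving out each library. Acinar markers, 6 genes, summed to 3.80 to 5.52 TPM, mostly Cela1, and the PP and epsilon markers to 0.16 to 1.02 TPM. Protein sequences were not used here.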

Additional observations from a re-analysis of the deposited data

How the results depend on the processing

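The 6 called genes kept their direction under all alternatives run. Of 417 recalculations of the 7 tested genes 407 kept their side of the threshold, 5 lost it (Creb1) and 5 gained it (Adcy6 with overexpression, and Glp1r and Ffar1 in EGCG against control), and none reversed. Gcgr and Adcy8, outside that count because the filter had left them out, were called lower in overexpression against control with no filter (adjusted p = 0.0103 and 0.0053). That made 8 of the 10 genes called, beside 31.6% of 39165 genes in that setting, 4597 higher and 7798 lower. Over the alternatives the difference with overexpression ran from 0.67 to 1.40 for Glp1r, from -1.44 to -0.56 for Gipr, from 0.48 to 1.01 for Ffar1, from 0.34 to 0.52 for Rapgef4, from 0.22 to 0.39 for Prkaca and from -0.44 to -0.23 for Creb1. With no filter on low values 12395 genes were called in overexpression against control, where 7106 were called with it, and 4775 in EGCG against control, where 2172 were. In that last comparison 895 were called with its 6 libraries alone, 1221 with the replicate block, and 735 to 3239 when each library was left out in turn. Of the 10 genes 1 (Adcy8, which the filter had left out) was called there with no filter and 2 (Glp1r and Ffar1) on nuclear protein-coding genes alone. No transcript of these genes was called there with the replicate block (0), and 0 to 3 were when each library was left out. Leaving out a library gave 5 to 7 of the genes called in overexpression against control and 5 to 6 in EGCG against overexpression, and in EGCG against control 0. The block gave 6723 and 5882 called genes in the first 2 comparisons and changed no call among the 10 genes but that of Adcy6, and 11 of 18 library and group pairs correlated best with the same number.

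Scaling changed the balance over all genes. In overexpression against control 4561 genes were higher and 2545 lower, against 3541 and 3547 with median-ratio scaling and 3559 and 3390 with quantile normalization. In EGCG against overexpression 2250 were higher and 4080 lower, against 3054 and 3082, 2814 and 3098, and, on nuclear protein-coding genes alone, 3230 and 2552, where the median of all genes moved from -0.09 to 0.03 and Adcy6 from -0.10 to 0.01. In EGCG against control 1323 were higher and 849 lower, against 2318 and 666 on nuclear protein-coding genes. The depth behind TPM is unknown, so how far low values such as those of Gcgr, Adcy5 and Adcy8 can be resolved is unknown.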
